A study of Danio rerio with 24 samples.

Results

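A set of 10 genes of the endothelium, the cell layer that lines blood and lymph vessels, were followed in whole zebrafish (Danio rerio) that carry an endothelial reporter and were kept in cannabinoids. The set holds FLI1 (the name in the gene table for zebrafish fli1), etv2, kdrl, kdr, flt1, flt4, tie1, tek, cdh5 and egfl7. Gene identifiers of the count files were matched to symbols in any letter case, and 10 of 10 genes were found, each with 1 identifier, among the 35117 identifiers of each file. The gene etv2 stands in the table under its older name etsrp and was found through a RefSeq synonym. All animals were of the line Tg(fli1:egfp), in which the fli1 promoter drives green fluorescent protein in endothelium and in some neural crest cells of the pharyngeal arches. The 6 groups were larvae at 96 hours post-fertilisation (hpf) kept in cannabidiol (CBD), in tetrahydrocannabinol (THC) or in the solvent DMSO, and embryos at 10 hpf kept in CBD, in THC or in DMSO. Exposure ran throughout development, and each group held 4 libraries of whole-animal RNA, given as biological replicates. The labels do not tie these libraries to separate clutches, and the p-values below cover only the spread among the libraries, which may be technical. CBD and THC are isomers: THC has a closed ring where CBD carries a free hydroxyl group. No dose was available for either compound, so CBD and THC are set side by side without matched doses.

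Endothelial cells arise from mesoderm under ETS transcription factors. Among these, Etv2 starts the vascular programme in zebrafish and is later shut down in most vessels, while Fli1 is kept on in differentiated endothelium. Growth and sprouting are then driven by vascular endothelial growth factors (VEGFs) acting through receptor tyrosine kinases, and vessels are stabilised by the Tie receptors and by junction proteins such as VE-cadherin. At 10 hpf, the end of gastrulation, a zebrafish has no vessels. By 96 hpf blood circulates through a trunk and head network.

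Depth was 14879976 to 29641377 counts in 23 libraries and 125926 counts in DMSO library 4 of 10 hpf. A detection floor of 3 counts equals 23.8 counts scaled to library size (CPM) there and 0.101 to 0.202 CPM elsewhere, for counting error only, and the values of DMSO library 4 of 10 hpf are given as counts. CBD library 3 of 10 hpf had a TMM scaling factor of 0.563, and results that rest on it are marked. Levels are CPM on 1 TMM scale over all 24 libraries. CPM carry no gene length, so levels are compared between groups for 1 gene and not between genes.

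In larvae all 10 genes were detected in every library, and the treatment groups overlapped for nearly all of them. In whole-animal RNA, fewer endothelial cells and less RNA per endothelial cell cannot be told apart. FLI1, an ETS factor of endothelium and blood, had 132, 114, 146 and 163 CPM in the CBD larvae. It had 181, 100.8, 143 and 144 CPM in the THC larvae and 188, 168, 106 and 167 CPM in the DMSO larvae. The ranges of the 3 groups overlapped, and the lowest and highest values lay in THC library 2 and DMSO library 1. The ETS factor etv2 had means of 5.45 ± 0.393 CPM in CBD, 5.77 ± 1.13 CPM in THC and 6.02 ± 0.616 CPM in DMSO larvae (SD, n = 4 each).

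The VEGF receptors of the larvae were as close between treatments. For kdrl, the main functional VEGF receptor-2 of zebrafish endothelium, libraries had 24.8, 29.8, 26.7 and 25.6 CPM in CBD, 22.2, 24.5, 28.4 and 25.6 CPM in THC, and 27.0, 22.7, 29.1 and 24.7 CPM in DMSO. No group stood apart. Its relative kdr, the second receptor of this type, had means of 3.29 ± 0.310 CPM in CBD, 3.41 ± 0.624 CPM in THC and 3.37 ± 0.988 CPM in DMSO larvae. The decoy-type receptor flt1, which binds VEGF-A and restrains sprouting, had 6.68 ± 0.587 CPM in CBD, 6.69 ± 0.701 CPM in THC and 6.85 ± 1.13 CPM in DMSO larvae. For flt4, the VEGF-C receptor of lymphatic and venous sprouts, the means were 13.2 ± 1.52 CPM in CBD, 12.8 ± 1.40 CPM in THC and 15.1 ± 3.22 CPM in DMSO larvae (SD, n = 4 each).

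The angiopoietin receptor family and the remaining genes followed. The orphan receptor tie1 had means of 11.9 ± 1.65 CPM in CBD, 11.8 ± 1.62 CPM in THC and 11.6 ± 0.558 CPM in DMSO larvae. The angiopoietin receptor tek, also called tie2, had 5.98 ± 0.972 CPM in CBD, 5.30 ± 0.911 CPM in THC and 6.07 ± 1.13 CPM in DMSO larvae. The secreted matrix protein gene egfl7 had 7.95 ± 1.16 CPM in CBD, 7.96 ± 1.38 CPM in THC and 8.71 ± 2.40 CPM in DMSO larvae (SD, n = 4 each). For cdh5, which codes for VE-cadherin of endothelial junctions, the libraries had 26.6, 18.8, 20.2 and 19.7 CPM in CBD, 16.6, 17.6, 18.1 and 16.3 CPM in THC, and 26.3, 16.1, 19.8 and 10.7 CPM in DMSO. Every CBD value lay above every THC value, while the DMSO libraries spanned both groups. With the larval groups placed in order of their means, neighbouring groups overlapped in range for each of the 10 genes.

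**Figure D1:**
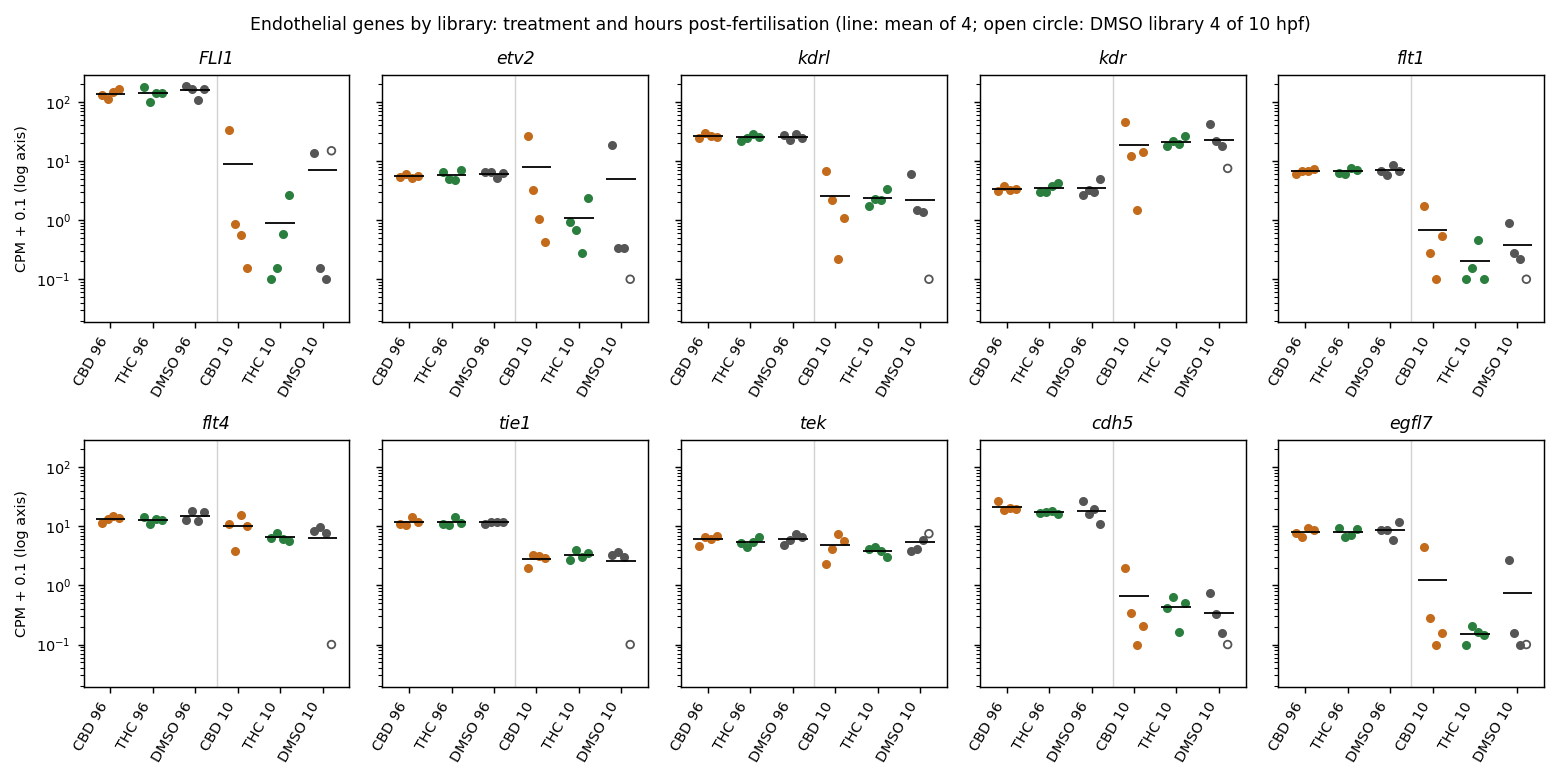
Each panel shows 1 gene, with CPM plus 0.1 on a log axis against treatment and hpf; points are libraries, the line is the mean of 4, and the open circle is DMSO library 4 of 10 hpf, with 125926 counts. The 3 larval groups overlap in every panel apart from CBD and THC in cdh5, FLI1 lies at 100.8 to 188 CPM in larvae, and kdr is lower in larvae than in most embryos.

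At 96 hpf no endothelial gene passed an adjusted p of 0.05 in edgeR's quasi-likelihood test, in any of the 3 comparisons. CBD against DMSO called 0 of 10 of these genes, where 0% of the 21409 genes tested were called and 410 had an unadjusted p under 0.05. THC against DMSO called 0 of 10, against 0.0514% of all genes tested (11 genes, all higher in THC, of which none is in the set, and 802 with an unadjusted p under 0.05). CBD against THC called 0 of 10, against 0% of all genes (540 with an unadjusted p under 0.05). DESeq2's Wald test and limma-voom also called 0 of the 10 genes in each comparison. Over all genes, DESeq2 called 54 in THC against DMSO, 14 in CBD against THC and 0 in CBD against DMSO.

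The larval intervals were narrow. Over the 30 fold changes of these 10 genes the log2 values ran from -0.22 (flt4, THC against DMSO) to 0.32 (cdh5, CBD against THC), with standard errors of 0.117 to 0.210. The 95% intervals reached -0.58 and 0.77, which are folds of 0.670 and 1.70. For kdrl the interval was -0.18 to 0.32 in CBD against DMSO and -0.27 to 0.23 in THC against DMSO. For FLI1 it was -0.54 to 0.24 in CBD against DMSO and -0.51 to 0.27 in THC against DMSO. These bounds limit the size of a difference and do not show that the treatments act alike.

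The median log2 fold change over the 10 genes was -0.01 in CBD against DMSO, where that over all genes was 0.01. In THC against DMSO it was -0.06, against 0.01 over all genes, and in CBD against THC it was 0.01, against -0.0028 over all genes. These comparisons share their libraries, so their values are not independent of each other. The cdh5 difference between CBD and THC had a log2 fold change of 0.32 (SE 0.210, unadjusted p = 0.155, adjusted p = 0.9999 in edgeR), and 2.47% of all genes tested had groups that did not overlap in this comparison.

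Embryos at 10 hpf differed far more between libraries of 1 treatment than larvae did. FLI1 had 34.0, 0.768, 0.465 and 0.0548 CPM in the CBD embryos, from 734, 13, 4 and 1 counts. It had 0, 0.0541, 0.485 and 2.58 CPM in the THC embryos, and 13.4, 0.0579 and 0 CPM in DMSO libraries 1 to 3, with 2 counts in DMSO library 4. CBD library 1 and DMSO library 1 thus stood apart from all other deep libraries of this stage. The early factor etv2 had the same high libraries, with 26.4, 3.19, 0.929 and 0.329 CPM in CBD, 0.844, 0.595, 0.182 and 2.26 CPM in THC, and 19.0, 0.231 and 0.239 CPM in DMSO libraries 1 to 3, with 0 counts in library 4.

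Both VEGF receptor-2 genes followed the same libraries, from different levels. For kdr the values were 46.5, 11.9, 1.39 and 14.2 CPM in CBD, 18.04, 21.4, 19.6 and 26.1 CPM in THC, and 41.8, 21.99 and 18.1 CPM in DMSO libraries 1 to 3, with 1 count in library 4. For kdrl they were 6.67, 2.13, 0.116 and 0.987 CPM in CBD, 1.64, 2.22, 2.06 and 3.26 CPM in THC, and 5.85, 1.39 and 1.25 CPM in DMSO libraries 1 to 3, with 0 counts in library 4. The highest values of both genes were again in CBD library 1 and DMSO library 1, and the lowest among deep libraries in CBD library 3. The receptor flt4 had its highest value, 15.2 CPM, in CBD library 3, and CBD library 2 had the lowest deep value, 3.78 CPM. This highest value rests on the TMM factor of 0.563 of CBD library 3, which had 131 counts, against 238 counts in CBD library 1. The other CBD libraries had 11.03 and 10.1 CPM, THC embryos had 5.65 to 7.57 CPM, and DMSO libraries 1 to 3 had 7.53 to 9.72 CPM.

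For cdh5, egfl7 and flt1 most embryo libraries held few counts. The junction gene cdh5 had 41, 4, 0 and 2 counts in CBD, 6, 10, 1 and 9 counts in THC, and 13, 4, 1 and 0 counts in DMSO embryos. The secreted gene egfl7 had 94, 3, 0 and 1 counts in CBD, 0, 2, 1 and 1 counts in THC, and 51, 1, 0 and 0 counts in DMSO embryos. The receptor flt1 had 36, 3, 0 and 8 counts in CBD, 0, 1, 6 and 0 counts in THC, and 16, 3, 2 and 0 counts in DMSO embryos. For all 3 genes the highest count was in CBD library 1 and the next in DMSO library 1. In contrast, tie1 had 1.85 to 3.13 CPM in CBD, 2.59 to 3.89 CPM in THC, and 2.99 to 3.59 CPM in DMSO libraries 1 to 3, and tek had 2.18 to 7.20 CPM in CBD, 2.99 to 4.32 CPM in THC, and 3.75 to 5.73 CPM in DMSO libraries 1 to 3. Neither Tie gene was highest in CBD library 1 or DMSO library 1, and CBD library 1 had the lowest deep value of both (1.85 and 2.18 CPM). The 7.20 CPM of tek was in CBD library 3, from 62 counts, and rests on its TMM factor of 0.563.

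Some of the 8 stage markers moved with CBD library 1 and DMSO library 1. Among deep libraries of 10 hpf, MYOG, smyhc1 and he1.1 were highest there, while low nanog was shared with CBD library 2 and THC library 4. The values of pou5f3, myod1, tbxta and gsc enter the sum below and are not described by library. The markers that are described do not stand for the whole list. MYOG, a factor of muscle differentiation, had 173 counts in CBD library 1 and 71 counts in DMSO library 1, and at most 1 count in each other 10 hpf library. The slow muscle myosin gene smyhc1 had 160.8 CPM in CBD library 1 and 71.8 CPM in DMSO library 1. The hatching enzyme gene he1.1 had 163.7 CPM in CBD library 1 and 65.4 CPM in DMSO library 1, and its next values were 18.4 CPM in THC library 4 and 11.6 CPM in CBD library 2. The early factor nanog had 10.8 and 11.99 CPM in CBD libraries 1 and 2, 11.1 CPM in THC library 4 and 10.2 CPM in DMSO library 1, and 76.7 to 219 CPM in the other deep libraries of 10 hpf. The summed level of the 8 stage markers was 499 to 1010 CPM in CBD, 406 to 1048 CPM in THC and 607 to 907 CPM in DMSO libraries 1 to 3. CBD library 1 (659 CPM) and DMSO library 1 (607 CPM) did not stand apart in this sum. The sum adds nanog, low in these libraries, to MYOG, smyhc1 and he1.1, high in them, so it cannot show a difference in stage. The part of stage in the endothelial values was not tested.

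**Figure D2:**
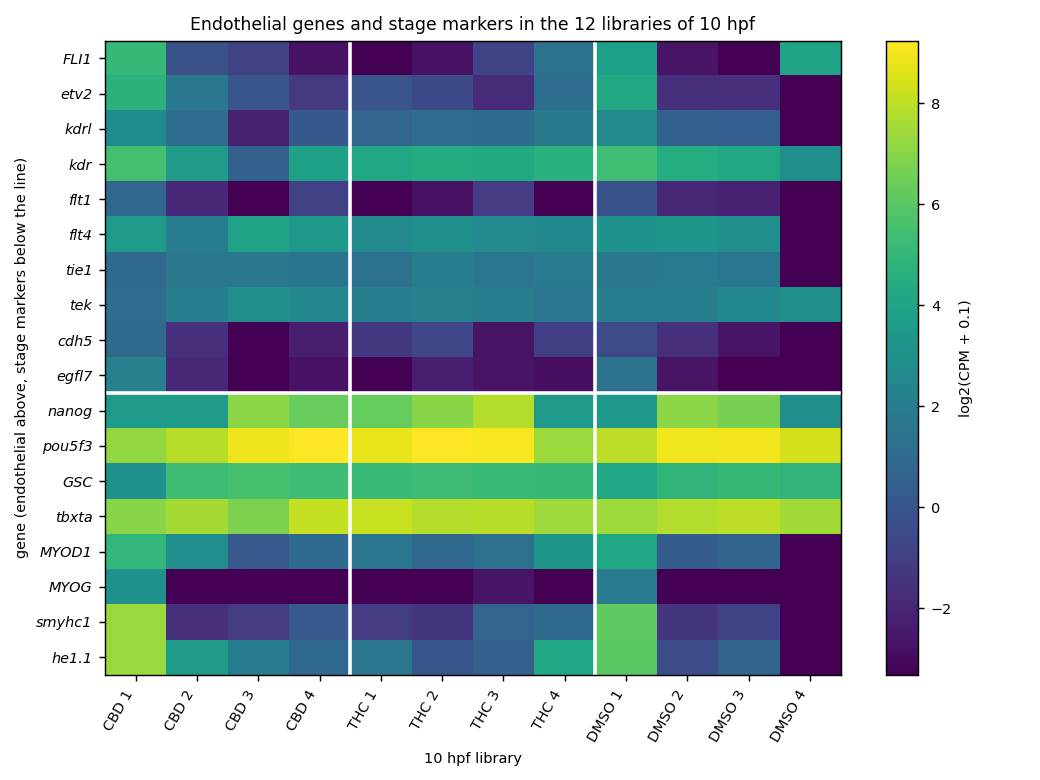
Colour gives log2(CPM + 0.1) of each endothelial gene (above the white line) and of 8 stage markers (below it) in the 12 libraries of 10 hpf, by treatment. Among the deep libraries, the columns of CBD library 1 and DMSO library 1 are brightest for FLI1, etv2, kdrl, kdr, flt1, cdh5, egfl7, MYOG, smyhc1 and he1.1.

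At 10 hpf 7 of the 10 genes passed the filter on low counts, and flt1, cdh5 and egfl7 did not. None of the 7 passed the test in CBD against DMSO, where 0% of the 17595 genes tested were called (952 with an unadjusted p under 0.05). The same held in THC against DMSO, with 0% of all genes called (49 with an unadjusted p under 0.05), and in CBD against THC, with 0% called (1601 with an unadjusted p under 0.05). DESeq2's Wald test and limma-voom also called none of these genes. Over all genes, limma-voom called 428 in CBD against DMSO, 719 in CBD against THC and 0 in THC against DMSO. DESeq2 called 0 over all genes in each comparison. The spread within groups made the intervals wide. FLI1 had a log2 fold change of 0.80 in CBD against DMSO (95% interval -3.42 to 5.01, adjusted p = 0.981 in edgeR) and of -2.69 in THC against DMSO (-7.05 to 1.66, adjusted p = 0.99999 in edgeR).

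The 10 hpf values of FLI1, etv2 and kdrl depend on the libraries with high MYOG and smyhc1. Without CBD library 1 and DMSO library 1, a choice made after the values were seen, THC against DMSO changed sign to 2.60 for FLI1, 2.02 for etv2 and 0.81 for kdrl, and no gene passed. In CBD against DMSO, FLI1 was -3.58 without CBD library 1 alone and 6.04 without DMSO library 1 alone. The Tie genes had tighter intervals than FLI1, although CBD library 1 had their lowest values among deep libraries (tie1 1.85 CPM, tek 2.18 CPM). For tie1 the log2 fold change was -0.20 in CBD against DMSO (95% interval -0.99 to 0.59) and 0.03 in THC against DMSO (-0.76 to 0.82). For tek it was 0.01 in CBD against DMSO (-0.86 to 0.88) and -0.32 in THC against DMSO (-1.20 to 0.55).

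**Figure D3:**
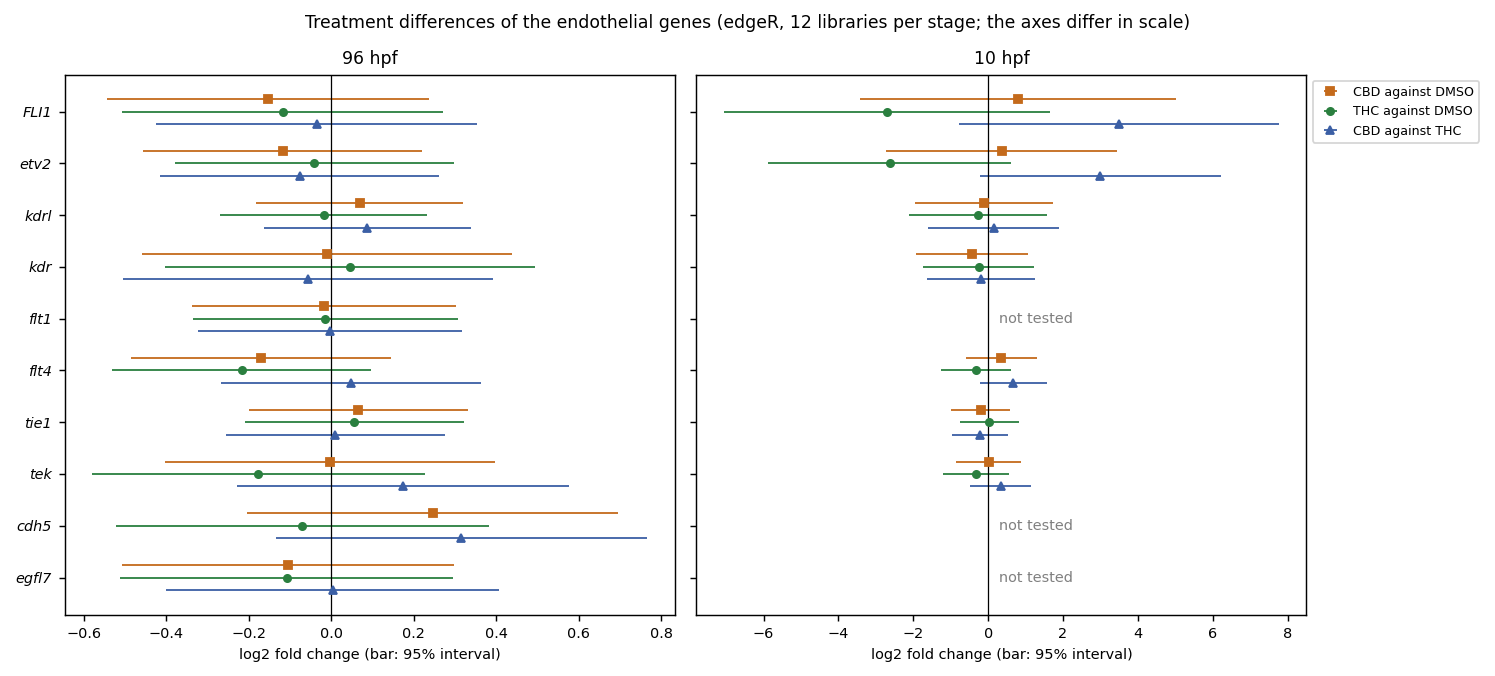
Log2 fold changes of the endothelial genes with 95% intervals for CBD against DMSO, THC against DMSO and CBD against THC, at 96 hpf (left) and 10 hpf (right), on axes that differ in scale. All intervals include 0; at 96 hpf they lie between -0.58 and 0.77, and at 10 hpf that of FLI1 in THC against DMSO runs from -7.05 to 1.66.

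No gene of the set passed the test of an interaction term, which asks whether a treatment effect differed between stages. For the CBD effect 0 of 10 passed, where 0% of the 22741 genes tested were called (1523 with an unadjusted p under 0.05). For the THC effect 0 of 10 passed, against 0% of all genes (539 with an unadjusted p under 0.05). The lowest unadjusted p in the set was that of egfl7 for the THC effect, with a difference of 3.79 on the log2 scale (SE 1.66, unadjusted p = 0.0323, adjusted p = 0.999995 in edgeR). It rests on the 10 hpf counts of egfl7 given above.

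Between the stages most of the set changed. Larvae had higher levels of FLI1, kdrl, flt1, tie1, cdh5 and egfl7 than embryos in all 3 treatments, and lower levels of kdr in all 3. In CBD 6 genes rose and 1 fell, where 78% of the 22741 genes tested were called (42.4% higher, 35.6% lower). In THC 8 rose and 1 fell, against 79.9% of all genes called (44.5% higher, 35.4% lower). In DMSO 7 rose and 1 fell, against 77.1% of all genes called (42.7% higher, 34.4% lower). A called share of 70% in CBD, 90% in THC and 80% in DMSO is thus near that of all genes. Of the genes that rose, flt1, cdh5 and egfl7 passed the filter on low counts only through the larvae. A rise was thus favoured in advance in their calls and in the medians below. Over the 10 genes the median log2 change was 2.41 in CBD, 2.99 in THC and 2.53 in DMSO. The median log2 change over all genes was 0.25 in CBD, 0.36 in THC and 0.32 in DMSO on the TMM scale. Of the genes called, 54.3% were higher in CBD, 55.7% in THC and 55.4% in DMSO, against 70.7% in CBD, 71.4% in THC and 71.5% in DMSO under DESeq2 size factors.

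The ETS factors differed in their calls: FLI1 passed in all 3 treatments and etv2 in THC only. Their changes were not tested against each other. FLI1 rose by a log2 fold change of 3.94 in CBD (SE 1.26, adjusted p = 0.00727 in edgeR), 7.44 in THC (SE 1.54, adjusted p = 0.000134 in edgeR) and 5.05 in DMSO (SE 1.48, adjusted p = 0.00381 in edgeR). All 12 larval values of FLI1 lay above all embryo values. Its size depended on single embryo libraries: the change was 8.36 in CBD without CBD library 1, 9.72 in THC without THC library 4 and 10.60 in DMSO without DMSO library 1, so the treatments' sizes are not set against each other. For etv2 the log2 change was 2.53 in THC (SE 1.09, adjusted p = 0.0376 in edgeR), which passed, and did not pass in CBD (-0.52, SE 0.992, adjusted p = 0.636 in edgeR) or DMSO (-0.06, SE 1.05, adjusted p = 0.963 in edgeR). The embryo values of etv2 in CBD library 1 and DMSO library 1 were above every larval value. Without those libraries the change of etv2 was 1.84 in CBD (adjusted p = 0.00359 in edgeR) and 4.65 in DMSO (adjusted p = 1.92e-05 in edgeR). In THC the call was lost when any 1 of 5 libraries was left out: THC libraries 1, 2 or 3 of 10 hpf or libraries 1 or 4 of 96 hpf, with adjusted p of 0.0572 to 0.0878 in edgeR, and it was 3.44 without THC library 4 of 10 hpf.

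The paired VEGF receptor-2 genes changed in opposite directions. The log2 change of kdrl was 3.36 in CBD, 3.45 in THC and 3.20 in DMSO, which are folds of 10.3, 10.9 and 9.20 (adjusted p at most 8.52e-05 in edgeR). That of kdr was -2.50 in CBD, -2.64 in THC and -2.92 in DMSO (adjusted p at most 0.000284 in edgeR). Without CBD library 1 of 10 hpf the changes in CBD were 4.51 for kdrl and -1.51 for kdr, and without DMSO library 1 of 10 hpf that of kdrl in DMSO was 4.31. In larvae kdr lay between 2.58 and 4.80 CPM, and in the embryos of THC between 18.04 and 26.1 CPM. The embryo value of CBD library 3, 1.39 CPM, was below every larval value, so the CBD groups overlapped, while the THC groups did not. DMSO libraries 1 to 3 of 10 hpf had 18.1 to 41.8 CPM, above every larval value. DMSO library 4 of 10 hpf, with 1 count under the floor of 3 counts, cannot settle overlap in DMSO. Over all genes tested, 35.4% in THC, 27.3% in CBD and 21.7% in DMSO were lower in larvae without overlap.

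The ratio of the 2 genes within a library does not depend on library scaling. It uses the same counts as the tests and shows only a relative change, not the direction of either gene. The share of kdrl in the sum of kdrl and kdr counts was 83.7% to 91.3% in the 12 larval libraries, with a median of 88.7%. In the 11 deep embryo libraries it was 5.94% to 15.1%, with a median of 9.38%. The CBD larvae had 88.5% to 89.5% and the CBD embryos 6.47% to 15.1%; the THC larvae had 86.1% to 89.5% and the THC embryos 8.31% to 11.1%; the DMSO larvae had 83.7% to 91.3% and the deep DMSO embryos 5.94% to 12.3%. Stages did not overlap and treatments did. Because the genes differ in length, this share compares libraries and not the levels of the genes.

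**Figure D4:**
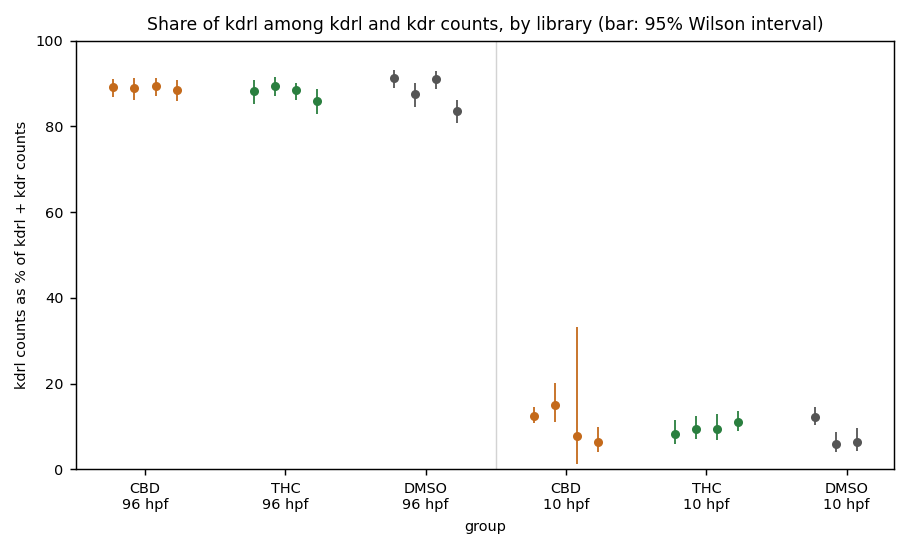
Counts of kdrl as a percentage of kdrl plus kdr counts, per library and group, with 95% Wilson intervals that cover counting error only; DMSO library 4 of 10 hpf, with 1 count, is left out. Larval libraries lie at 83.7% to 91.3% and embryo libraries at 5.94% to 15.1%.

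Of the other VEGF receptors, flt1 rose in all 3 treatments and flt4 in THC and DMSO. The log2 change of flt1 was 3.39 in CBD, 6.05 in THC and 4.17 in DMSO (adjusted p at most 6.05e-05 in edgeR), from low embryo counts. It was 4.76 in CBD without CBD library 1, 8.22 in THC without THC library 3 and 5.50 in DMSO without DMSO library 1 of 10 hpf. For flt4 it was 0.40 in CBD (adjusted p = 0.213 in edgeR), 1.002 in THC (adjusted p = 0.00383 in edgeR) and 0.89 in DMSO (adjusted p = 0.0131 in edgeR). Without CBD library 3 the flt4 change in CBD was 0.75 and passed (adjusted p = 0.0238 in edgeR).

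The Tie genes parted as well. The log2 change of tie1 was 2.14 in CBD, 1.88 in THC and 1.85 in DMSO, which are folds of 4.40, 3.68 and 3.62 (adjusted p at most 2.87e-07 in edgeR). For tek it was 0.35 in CBD, 0.48 in THC and 0.40 in DMSO and did not pass (adjusted p = 0.257, 0.121 and 0.239 in edgeR). In CBD, tek passed without CBD library 3 (0.69, adjusted p = 0.0286 in edgeR). Under DESeq2 size factors in edgeR, which shift the median change of all genes upward by 0.83 in CBD, 0.86 in THC and 0.82 in DMSO, tek passed in each treatment with 1.18, 1.35 and 1.24. On that scale the median of all genes was 1.08 in CBD, 1.22 in THC and 1.14 in DMSO, and kdr was still called lower in each treatment.

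The junction and matrix genes rose in all 3 treatments. The log2 change of cdh5 was 5.06 in CBD (SE 0.663), 5.64 in THC (SE 0.696) and 5.79 in DMSO (SE 0.790), with folds of 33.4, 49.96 and 55.4 (adjusted p at most 7.89e-07 in edgeR). That of egfl7 was 2.67 in CBD (SE 0.903, adjusted p = 0.0102 in edgeR), 7.08 in THC (SE 1.29, adjusted p = 3.03e-05 in edgeR) and 3.29 in DMSO (SE 1.04, adjusted p = 0.00652 in edgeR). Without CBD library 1 of 10 hpf the changes in CBD were 7.24 for cdh5 and 6.37 for egfl7, and without DMSO library 1 of 10 hpf those in DMSO were 6.91 for cdh5 and 7.95 for egfl7. With only the 2 groups compared in the fit, egfl7 in CBD did not pass (2.73, adjusted p = 0.0561 in edgeR). The fitted changes of egfl7, cdh5 and flt1 in THC rest on embryo counts of 0 to 10 per library and depend on how the fit treats such counts. In the fit of both stages, egfl7, cdh5 and flt1 passed the filter only through the larvae, so their testing already favoured a rise. FLI1, kdrl, kdr, flt1, tie1 and cdh5 were called in every treatment under each alternative run.

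**Figure D5:**
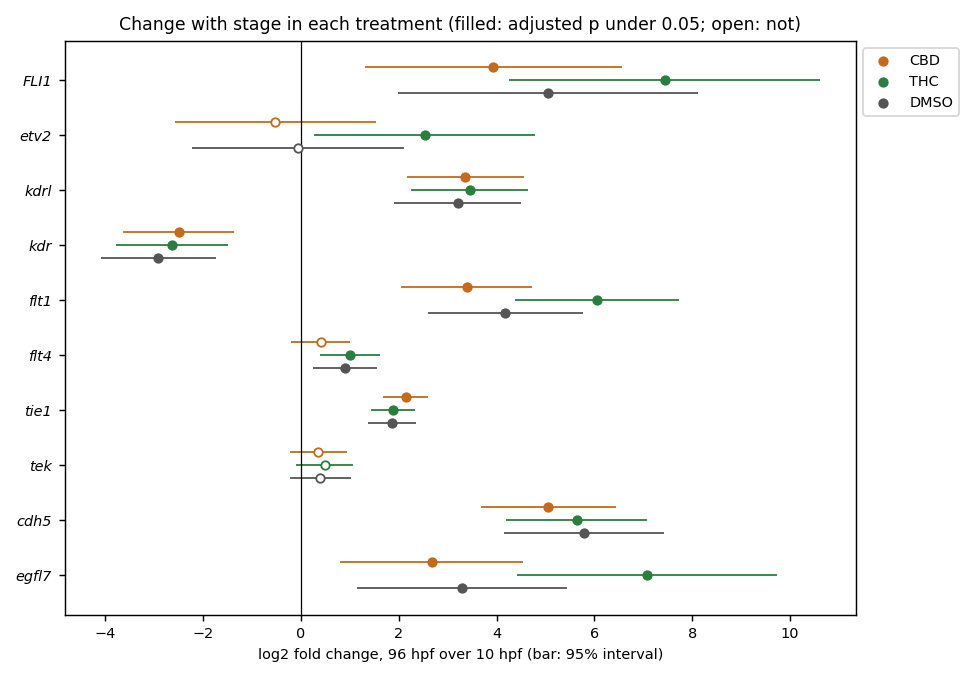
Log2 fold change of larvae over embryos with 95% intervals in CBD, THC and DMSO, with filled points for an adjusted p under 0.05. The filled points of kdr lie left of 0 at -2.50 to -2.92 and those of kdrl right of it at 3.20 to 3.45, while tek is open in all 3 treatments.

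Over the 12 larval libraries the genes of the set did not form 1 pattern. The log2 CPM of FLI1 correlated with those of egfl7 at r = 0.78 and of flt4 at r = 0.54, and with that of kdrl at r = -0.54. That of kdrl correlated with flt1 at r = 0.77 and with egfl7 at r = -0.62, and that of cdh5 with kdr at r = -0.70 and with flt4 at r = -0.68. In the same order, Spearman's rank correlations were 0.73, 0.57 and -0.43 for FLI1, 0.75 and -0.50 for kdrl, and -0.45 and -0.58 for cdh5. DMSO library 4 had both the lowest cdh5 (10.7 CPM) and the highest kdr (4.80 CPM) of the larvae. These correlations describe 12 libraries of 3 treatments that share their library scaling. Among all genes tested at 96 hpf, those most like FLI1 were ska3, TGFB3, FKBP9, KPNA2 and HBE1 (r = 0.91 for ska3 and 0.89 for HBE1). Those most like kdrl were TRIM3, leng8, fgd5b, PDE4A and AMOTL2 (r = 0.95 for TRIM3), and those most like cdh5 were SORCS2, EIF4E3, PTPN5, TMTC1 and RND1 (r = 0.99 for SORCS2). No gene of the set was among the 5 most like another for FLI1, kdrl or cdh5. Of 21408 genes ranked, the nearest of the set was egfl7 at rank 222 for FLI1, flt1 at 387 for kdrl and kdrl at 5109 for cdh5.

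The 5 lists of other vascular genes (ligands, co-receptors and guidance genes, transcription factors, Notch and artery or vein genes, and junction, surface and secreted genes) gave 88 identifiers for comparison. None passed in CBD against DMSO, THC against DMSO or CBD against THC, at 96 hpf (85 tested) or at 10 hpf (66 tested). The lowest unadjusted p values at 96 hpf in CBD against DMSO were those of hhex, with a log2 fold change of -0.52, and of the flow-responsive factor klf2a, with 0.61. In CBD against THC klf2a averaged 67.6 ± 20.6 CPM in CBD and 40.4 ± 13.6 CPM in THC larvae (SD, n = 4 each, log2 fold change 0.74, unadjusted p = 0.0483, adjusted p = 0.9999 in edgeR). In THC against DMSO the lymphatic marker lyve1b averaged 3.22 ± 0.731 CPM in THC and 2.34 ± 0.383 CPM in DMSO larvae (SD, n = 4 each, log2 fold change 0.48, unadjusted p = 0.0371, adjusted p = 0.99999 in edgeR). The next lowest were mmrn2b in CBD against THC (log2 fold change 0.42) and plvapa in THC against DMSO (0.54). At 10 hpf the lowest were LMO2 (4.25, unadjusted p = 0.0288, adjusted p = 0.542 in edgeR) and ERG (0.97) in CBD against THC. In CBD against DMSO they were GATA2 (0.45) and 1 of 2 CXCR4 identifiers (0.49). In THC against DMSO they were LMO2 (-3.72) and the same CXCR4 identifier (0.52). LMO2 had 8.24 ± 15.7 CPM in CBD embryos (SD, n = 4).

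Between stages, 86 of those identifiers were tested. In CBD 51 rose and 17 fell, with a median log2 change of 1.73. In THC 62 rose and 16 fell, with a median of 2.25, and in DMSO 53 rose and 17 fell, with a median of 2.11. The shares called were 79.1% in CBD, 90.7% in THC and 81.4% in DMSO, against 78% in CBD, 79.9% in THC and 77.1% in DMSO over all genes. The endothelial pore gene plvapb had 53.2 ± 4.44 CPM in CBD larvae against 0.660 ± 0.194 CPM in CBD embryos (SD, n = 4 each), 1 of 2 identifiers with the ephrin symbol EFNB2 (ENSDARG00000074050) fell to 6.69 ± 0.627 CPM in CBD larvae, against 86.2 ± 16.3 CPM in CBD embryos (SD, n = 4 each), and the ligand gene apela had 1.26 ± 0.199 CPM in CBD larvae against 206.5 ± 130.9 CPM in CBD embryos (SD, n = 4 each). All 3 passed in the 3 treatments, in the same directions.

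Markers of other cells moved with stage too. The 10 identifiers of the neural crest and cartilage list, cells in which the reporter is also read, summed to 2903 to 4465 CPM in CBD, 2244 to 3472 CPM in THC and 3580 to 4592 CPM in DMSO larvae. In embryos they summed to 119 to 770 CPM in CBD, 260.2 to 325 CPM in THC and 245 to 499 CPM in DMSO. Of the 9 tested, 5 rose in CBD, 7 in THC and 5 in DMSO, and 1 fell in each treatment. The shares called, 66.7% in CBD, 88.9% in THC and 66.7% in DMSO, lie around those of all genes (78%, 79.9% and 77.1%), against which the counts of the next lists are to be read too. FOXD3 was at 0 in all libraries, and SOX10 was detected in all larvae. The 8 erythroid identifiers, which matter because FLI1 is also read in blood, summed to 623 to 823 CPM in CBD, 498 to 814 CPM in THC and 526 to 1033 CPM in DMSO larvae. The embryo sums were 10.8 to 22.9 CPM in CBD, 9.63 to 20.6 CPM in THC and 9.26 to 21.6 CPM in DMSO libraries 1 to 3. In DMSO library 4, 5 of the 8 were at 0. Of the 7 tested, 5 rose in CBD, 5 in THC and 4 in DMSO, and none fell. The embryonic globin gene hbae1.1 was at 0 in all CBD and THC embryos. DMSO library 1, with high MYOG and smyhc1, had counts for all 8 erythroid identifiers. DMSO libraries 2 and 3 each had 2 of the 8 at 0, where each CBD and THC embryo library had 1 or 2. The 6 myeloid identifiers summed to 77.7 to 96.3 CPM in CBD, 71.9 to 89.0 CPM in THC and 67.9 to 102 CPM in DMSO larvae. In embryos they summed to 101 to 237 CPM in CBD, 111 to 194 CPM in THC and 125 to 203 CPM in DMSO. In each treatment 4 rose and 2 fell, so the sum follows the genes that fell and does not measure myeloid cells. The myeloid markers mpx and mpeg1.1 were not matched. The 237 CPM, and the lowest CBD embryo sums above (119 and 10.8 CPM), were in CBD library 3 and rest on its TMM factor of 0.563. The 6 pericyte and smooth muscle identifiers summed to 328 to 402 CPM in CBD, 353 to 430.3 CPM in THC and 320.0 to 426 CPM in DMSO larvae, and to 196 to 332 CPM in CBD, 182 to 352 CPM in THC and 209.6 to 277 CPM in DMSO embryos, and 4 rose and 1 fell in each treatment. The part of these cells in the stage changes of the endothelial genes was not tested.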

How the data were processed

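RNA was taken from whole animals with RNeasy columns and DNase, and TruSeq libraries were read in pairs on a HiSeq instrument, per the labels' protocols. Each library has 1 deposited file of unnormalized read counts for each gene; per the submitters' processing notes the authors used STAR, HTSeq and edgeR with GRCz11, in versions not given in the sources used here. The file names mark the counting as reverse-stranded and union. No row lacked a gene (0 rows). Symbols covered 27000 of 35117 identifiers. The genes and lists were chosen with earlier results of these data known.

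From the counts, each stage was fitted apart over 12 libraries with edgeR 4.0.16 (R 4.3.3): filterByExpr (minimum count 10, minimum total 15), TMM, glmQLFit and glmQLFTest on group means, and Benjamini-Hochberg adjustment over all genes tested, with a threshold of 0.05. Stage changes and interaction terms came from 1 fit of 24 libraries. This tested 17595 genes at 10 hpf, 21409 at 96 hpf and 22741 over both. Intervals are 95%, from the standard error and the fit's degrees of freedom. Alternatives included limma 3.58.1 voom with quality weights and DESeq2 1.42.0. The named other vascular genes are up to 3 per comparison with the smallest p among those that passed, or 2 where none did. Those of the interaction terms are not named. All 36 replicate pairs differed by more than sampling noise (lowest chi-square per degree of freedom 2.53). The fit was tested on simulated data.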

Additional observations from a re-analysis of the deposited data

Results flagged for a closer look

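Single libraries lay far from the other 3 of their group, by Dixon's test on the gap to the nearest value, in 9 of 60 groups of 4 (10 genes in 6 groups). For independent values with normal spread, chance alone flags about 1 in 20 groups. The 10 genes share their libraries and many embryo values come from few counts, so the flags cannot be set against that rate. Of the 9 flags, 8 were at 10 hpf and 1 at 96 hpf.

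CBD library 1 of 10 hpf was the high library for FLI1 (34.0 CPM), etv2 (26.4 CPM), cdh5 (1.90 CPM) and egfl7 (4.36 CPM). DMSO library 1 of 10 hpf was the high library for etv2 (19.0 CPM) and egfl7 (2.55 CPM). These are the libraries with MYOG counts, and the part of stage was not tested. THC library 3 of 10 hpf was the high library for flt1, with 0.364 CPM from 6 counts. DMSO library 4 of 10 hpf was the low library for tie1, with 0 counts (0 CPM) at a floor of 23.8 CPM. At 96 hpf, DMSO library 1 was the low library for tie1, with 10.7 CPM.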

How the results depend on the processing

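The count of endothelial genes called stayed at 0 in all 6 treatment comparisons and both interactions under every alternative run: other scaling, tests and filters, a replicate block, only the libraries compared, and each library left out in turn. Over 1089 treatment fold changes refitted in this way, 0 passed, and the lowest adjusted p was 0.194 at 10 hpf and 0.667 at 96 hpf (tools and settings pooled). Stage calls ran from 6 to 10 genes in CBD, 8 to 10 in THC and 8 to 9 in DMSO, and from 7 to 9, 8 to 9 and 8 to 9 with 1 library left out. Of 1020 stage values of single genes, 989 were counted as the same. These were called with the same sign, or stayed uncalled and moved by under 1 SE of the edgeR fit, whether or not the sign changed. A further 6 lost the call (5 for etv2 in THC, 1 for egfl7 in CBD), 17 gained it (tek and flt4) and 8 reversed (etv2 in CBD and DMSO). The cause was not tested.

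A change of sign was counted as a reversal where the value moved by at least 1 SE of the edgeR fit or crossed into a call, and 25 of 133 sign changes did so. The other 108 were smaller and 0 of them passed. With CBD library 1 and DMSO library 1 of 10 hpf left out together (added after seeing the data), THC against DMSO was 2.60 for FLI1, 2.02 for etv2 and 0.81 for kdrl, and CBD against THC was -0.90 for FLI1 and -1.04 for kdrl. The stage change of etv2 was then 1.84 in CBD and 4.65 in DMSO. With voom, etv2 in THC against DMSO was 0.43, flt4 was -0.61 in CBD against DMSO and -0.27 in CBD against THC, and the stage change of etv2 was 1.25 in CBD and 4.03 in DMSO. With 1 library left out, THC against DMSO at 10 hpf ran from -4.84 to 2.55 for FLI1, -3.48 to 2.03 for etv2 and -0.56 to 0.83 for kdrl. CBD against DMSO ran from -3.58 to 6.04 for FLI1, -2.03 to 5.03 for etv2 and -1.31 to 0.98 for kdrl. CBD against THC ran from -0.89 to 5.64 for FLI1 and -1.03 to 0.55 for kdrl. THC against DMSO at 96 hpf ran from -0.26 to 0.15 for cdh5, and the stage change of etv2 from -0.84 to 1.85 in CBD and -0.49 to 4.65 in DMSO.

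Pairing of libraries by replicate number was neither shown nor excluded. Same-numbered libraries correlated above 0.1 in 4 of 12 pairs at 10 hpf and 7 of 12 at 96 hpf, and matched their own number best in 3 and 5 cases. Their r ran from -0.55 to 0.65 at 10 hpf and from -0.25 to 0.40 at 96 hpf. With the replicate block the stage change of etv2 was 0.61 in CBD and 1.34 in DMSO, the endothelial counts in the treatment comparisons stayed 0, and genes called over the whole table in THC against DMSO at 96 hpf numbered 1, against 11 without it. In larvae flt1, tie1 and tek were higher in libraries 3 and 4 than in libraries 1 and 2 in all 3 treatments (tek 6.44 against 5.52 CPM in CBD, 5.90 against 4.70 CPM in THC, 6.91 against 5.23 CPM in DMSO). These genes were picked after the values were seen, and the other genes of the set went different ways between treatments. With a term for this split 0 endothelial genes and 14 genes in all were called in THC against DMSO. Other settings moved counts over all genes too: THC against DMSO at 96 hpf reached 54 with DESeq2 and CBD against THC 14; with voom, CBD against DMSO at 10 hpf reached 428, CBD against THC 719, the CBD interaction 578 and the THC interaction 2.

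Depth limits DMSO library 4 of 10 hpf, and low embryo counts limit flt1, cdh5 and egfl7. Only 4 libraries a group limit the rest.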
